A study of Mus musculus with 2 samples.

Results

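Matricellular proteins are secreted into the matrix around cells, where they act mainly on receptors, proteases and growth factors. The genes described here are Ccn2 (CTGF), Ccn1 (CYR61), Tgfbi, Thbs1, Postn, Pmepa1, Plod2, Sphk1 and Fn1, grouped as genes that TGF-β induces in fibroblasts. They were chosen by name, and each matched 1 row, headed CTGF, CYR61, TGFBI, THBS1, POSTN, PMEPA1, PLOD2, SPHK1 or FN1, of a deposited table of 25430 distinct gene names. Some of them are not matricellular proteins: Fn1 encodes a structural matrix protein, Plod2 and Sphk1 encode intracellular enzymes, and Pmepa1 encodes a membrane protein. All 9 were among the 11070 genes called measured, meaning a mean of 1 FPKM or more over both libraries (FPKM are fragment numbers divided by transcript length in kilobases and by the mapped fragments of the library).

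RNA sequencing compared primary mouse embryonic fibroblasts (MEFs) labelled Sptbn1 knockout with MEFs labelled wild type. The sample title gives the knockout as homozygous (Sptbn1-/-). Cells came from embryos at day 13.5 of matings between heterozygous parents and grew in DMEM/F12 medium with fetal bovine serum, and the labels name no added TGF-β. Serum itself contains TGF-β. Sptbn1 encodes β2-spectrin, a membrane skeleton protein described in the literature as an adaptor of Smad3 and Smad4, the transcription factors of the TGF-β pathway. Each genotype had 1 library, so no difference below has a spread between cultures, an SD or a test, and each is a difference between 2 libraries. In bulk RNA, fewer cells of a type and less RNA per cell cannot be told apart. The labels do not say whether a library came from 1 embryo or from pooled embryos.

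Sptbn1, listed under its older name Spnb2, had 36.6 FPKM in knockout MEFs and 69.6 FPKM in wild-type MEFs. The knockout library thus was the lower but still held 52.5% of the wild-type level, so the transcript was not lost. The sources used here do not give which part of the gene was altered, so this level does not show whether the library is homozygous, and "knockout" below means the library labelled so. The wild-type column was recognised by its title, although its header also carries a -/- mark. The total number of fragments is not given in the sources used here. The values of rows with few fragments place the knockout library as the shallower of the pair, with 1 fragment worth 1.61 times as much FPKM there. That ratio was the most frequent among 3100 rows with a mean below 0.3 FPKM and a value above 0 in both libraries. It was closely shared by 383 of them.

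TGF-β binds paired receptor kinases at the cell surface, which phosphorylate Smad2 and Smad3. These join Smad4, enter the nucleus and activate genes together with partners such as AP-1. In fibroblasts the pathway is known for raising matrix genes during wound repair and fibrosis. Ccn1 and Ccn2 are also standard targets of YAP and TEAD, which respond to cell tension and spreading, and thrombospondin 1 can release TGF-β from its latent complex.

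Promoter sequence was listed in RefSeq (GRCm38.p6) for 4 of the 9 genes, Ccn1, Postn, Sphk1 and Tgfbi, with 9 start sites among them. The 250 bases before a start are printed for 4 of these windows, to show which of the short elements named next they hold. Capitals mark matches, on either strand, to the TEAD element GGAATG, the AP-1 element TGANTCA, the TATA element TATAAA, the SMAD element CAGACA or the CArG box of serum response factor.
Ccn1, GRCm38.p6 chr3:145649986-145650235, minus strand: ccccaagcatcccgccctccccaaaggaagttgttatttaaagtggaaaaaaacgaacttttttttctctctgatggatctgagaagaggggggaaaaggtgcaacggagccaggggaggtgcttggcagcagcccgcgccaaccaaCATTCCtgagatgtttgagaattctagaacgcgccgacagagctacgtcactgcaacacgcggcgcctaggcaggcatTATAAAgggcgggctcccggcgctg
Sphk1, first listed start, GRCm38.p6 chr11:116530850-116531099, plus strand: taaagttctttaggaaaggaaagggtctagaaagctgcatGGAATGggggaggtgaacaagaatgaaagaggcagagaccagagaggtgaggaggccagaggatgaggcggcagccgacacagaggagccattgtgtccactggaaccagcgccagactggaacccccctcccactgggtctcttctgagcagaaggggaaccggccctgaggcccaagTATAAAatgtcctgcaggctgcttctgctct
Postn, second listed start, GRCm38.p6 chr3:54360857-54361106, plus strand: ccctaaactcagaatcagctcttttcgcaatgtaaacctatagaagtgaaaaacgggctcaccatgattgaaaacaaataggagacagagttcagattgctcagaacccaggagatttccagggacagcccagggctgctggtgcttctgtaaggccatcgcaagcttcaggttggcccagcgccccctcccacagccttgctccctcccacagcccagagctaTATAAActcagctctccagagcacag
Tgfbi, GRCm38.p6 chr13:56609336-56609585, plus strand: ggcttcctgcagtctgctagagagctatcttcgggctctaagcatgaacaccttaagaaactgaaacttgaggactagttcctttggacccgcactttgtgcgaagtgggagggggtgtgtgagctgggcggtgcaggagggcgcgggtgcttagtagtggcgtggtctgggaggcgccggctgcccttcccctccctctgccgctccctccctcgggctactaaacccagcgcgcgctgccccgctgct

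The Ccn1 window held a TEAD element 103 bases before the start and a TATA element 25 bases before it. The first Sphk1 window held the same pair of elements, at 210 and 31 bases, whereas no other Sphk1 window held either of the pair. Among 32851 mouse promoter windows of the same length, 12.6% held the TEAD element and 12.4% the TATA element. The second Postn window held a TATA element 26 bases before the start, and the Tgfbi window held none of the elements. The first Postn window held none either. An AP-1 element, found in 6.75% of all windows, lay in 2 overlapping Sphk1 windows that are not printed here. The Sphk1 windows further downstream, also not printed, held none of the elements. The SMAD element (17.1% of all windows) and the CArG box (1.47%) had no match in any of the 9 windows. These are matches of letters within short windows, not measured binding.

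The highest and lowest of these genes were 127-fold apart in level in knockout MEFs and 123-fold apart in wild-type MEFs, and the order was the same in both libraries except for 1 neighbouring pair. Postn, Thbs1 and Fn1 ranked 25th, 32nd and 37th among the 11070 measured genes by mean FPKM. Ccn2 ranked 151st and Ccn1 163rd. Pmepa1 (447th), Plod2 (578th) and Tgfbi (589th) followed, and Sphk1 was far lower, at 5764th. Plod2 stood above Tgfbi in knockout MEFs and below it in wild-type MEFs. FPKM are per length of transcript, so levels can be set beside each other between genes. With no replicate, it cannot be said which neighbours in this order differ beyond their spread.

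**Figure D1:**
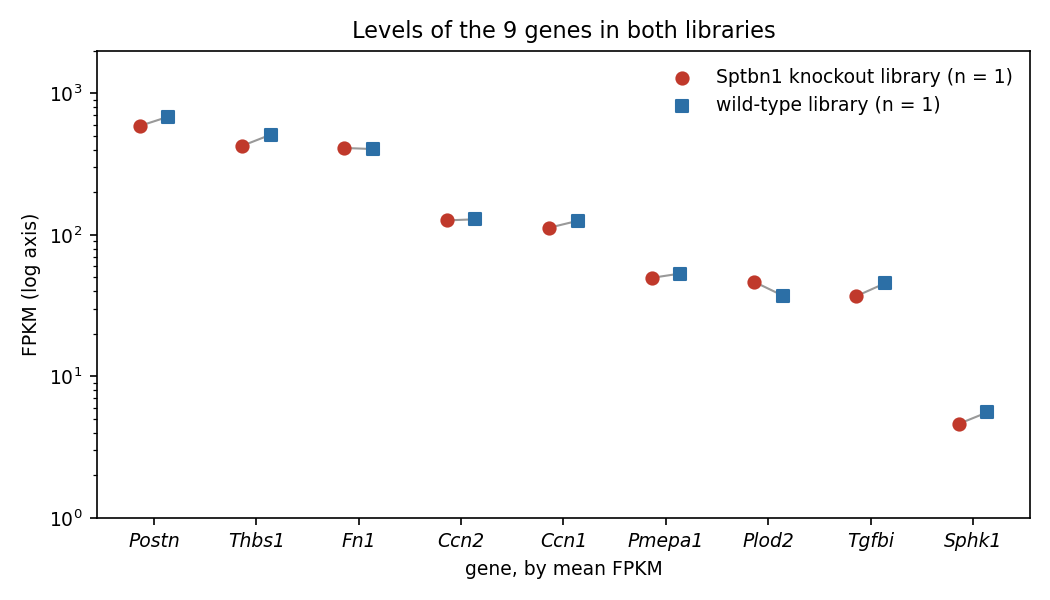
FPKM (log axis) of each of the 9 genes, ordered by mean level, in the Sptbn1 knockout library (red circles) and the wild-type library (blue squares), 1 library each. Levels ran from 587.9 FPKM for Postn to 4.61 FPKM for Sphk1 in knockout MEFs, and from 683.6 to 5.57 FPKM in wild-type MEFs.

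Differences are log2 ratios of knockout over wild type after 1 FPKM was added to both values, a scale on which changes of genes at low levels come out too small. On this scale the median of the 9 genes was -0.16, with 7 below 0 and 2 above. Of all measured genes 63.1% were below 0, and their median was -0.05. Relative to that median gene, 6 of the 9 were lower. None of the 9 reached 2-fold, a size that 0.741% of measured genes reached (0.361% higher and 0.379% lower). At 1.2-fold or more, 1 gene (Tgfbi) was lower, beside 10.6% of all measured genes, and 1 (Plod2) was higher, beside 5.54%. Under each of the 4 other scalings 0 of the 9 were that much lower, beside 120 to 968 of 11070 measured genes. With 0.1 FPKM or none added 3 of the 9 were, beside 1709 of 11070 and 1776 of 11046 measured genes. Thbs1 lay just inside that limit, with a log2 ratio of -0.2627, where 1.2-fold is 0.2630 on this scale. With 1 FPKM added, the counts on the deposited scale stand near what the table as a whole shows. Centring on the median gene turned the split of all genes past 1.2-fold from 613 higher and 1177 lower into 858 higher and 799 lower, so small negative ratios depend on the zero point.

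Among those of the 9 genes that encode secreted proteins that bind integrins, the genes of thrombospondin 1 and periostin had the highest levels. Thbs1, which encodes a large adhesive glycoprotein, was at 425.2 FPKM in knockout MEFs and 510.3 FPKM in wild-type MEFs, a log2 ratio of -0.26. Postn, which encodes periostin, a protein of collagen-rich and healing tissue, was at 587.9 against 683.6 FPKM (-0.22). Tgfbi encodes the TGF-β-induced protein, a relative of periostin through shared fasciclin domains. It was at 36.9 FPKM in knockout MEFs and 45.4 FPKM in wild-type MEFs (-0.29), the lowest log2 ratio of the 9. For all 3 the knockout library was the lower, at 81.2% (Tgfbi) to 86.0% (Postn) of the wild-type level. Of measured genes, 8.35% had a lower ratio than Tgfbi, 10.7% a lower one than Thbs1 and 15.1% a lower one than Postn. Markers of macrophages and leukocytes, cells that such cultures can hold, were also lower, with 11 of 12 below 0 and a median of -0.43, and their part in these ratios was not tested.

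The CCN genes lay closer to equality. Ccn2, whose product acts with TGF-β in fibrosis, was at 126.5 FPKM in knockout MEFs and 128.8 FPKM in wild-type MEFs, a log2 ratio of -0.03. Ccn1, whose product supports adhesion and migration, was at 112.3 against 125.7 FPKM (-0.16). The knockout library held 98.2% of the wild-type level of Ccn2 and 89.4% of that of Ccn1. Fn1, encoding fibronectin, the adhesive glycoprotein on which cells assemble other matrix, was at 411.2 FPKM in knockout MEFs and 403.9 FPKM in wild-type MEFs (0.03). FPKM sum over transcripts, so the table says nothing of the spliced forms of fibronectin.

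The enzymes went opposite ways. Plod2, a lysyl hydroxylase of the collagen telopeptides whose activity sets the type of collagen crosslink, was at 46.7 FPKM in knockout MEFs and 37.2 FPKM in wild-type MEFs. Its log2 ratio of 0.32 was the highest of the 9, and 3.91% of measured genes had a higher one. Sphk1, which makes the signalling lipid sphingosine-1-phosphate, was at 4.61 against 5.57 FPKM (-0.23, or -0.27 without the pseudocount). Pmepa1, a feedback inhibitor that keeps receptor SMADs from being activated, was at 49.6 FPKM in knockout MEFs and 53.3 FPKM in wild-type MEFs (-0.10).

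Genes near in abundance give a measure of how far such ratios spread in these libraries. For each gene the middle 90% of the log2 ratios of the 500 measured genes nearest in mean FPKM was taken. For Postn, Thbs1, Fn1, Ccn2 and Ccn1 these were the 500 most abundant genes. Their mean FPKM ran from 46.7 to 91583, so that set is not closely matched in level. All 9 lay inside their interval. That interval ran from -0.56 to 0.58 for the most abundant genes, from -0.39 to 0.40 for Tgfbi and from -0.34 to 0.26 for Sphk1. For Plod2 it ran from -0.40 to 0.40, and 92.4% of its neighbours had a lower ratio. For Tgfbi 8.80% of neighbours had a lower ratio. These neighbours are other genes, not replicates.

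Ratios between the genes within a library do not depend on how the libraries are scaled. Set against Fn1, Postn was at 143% of its level in knockout MEFs and 169% in wild-type MEFs, and Thbs1 at 103% against 126%. Tgfbi was at 8.97% of Fn1 in knockout MEFs and 11.3% in wild-type MEFs, whereas Plod2 was at 11.3% against 9.22%. The gap between Plod2 and Tgfbi, the extremes, was 0.61 on the log2 scale with 1 FPKM added.

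**Figure D2:**
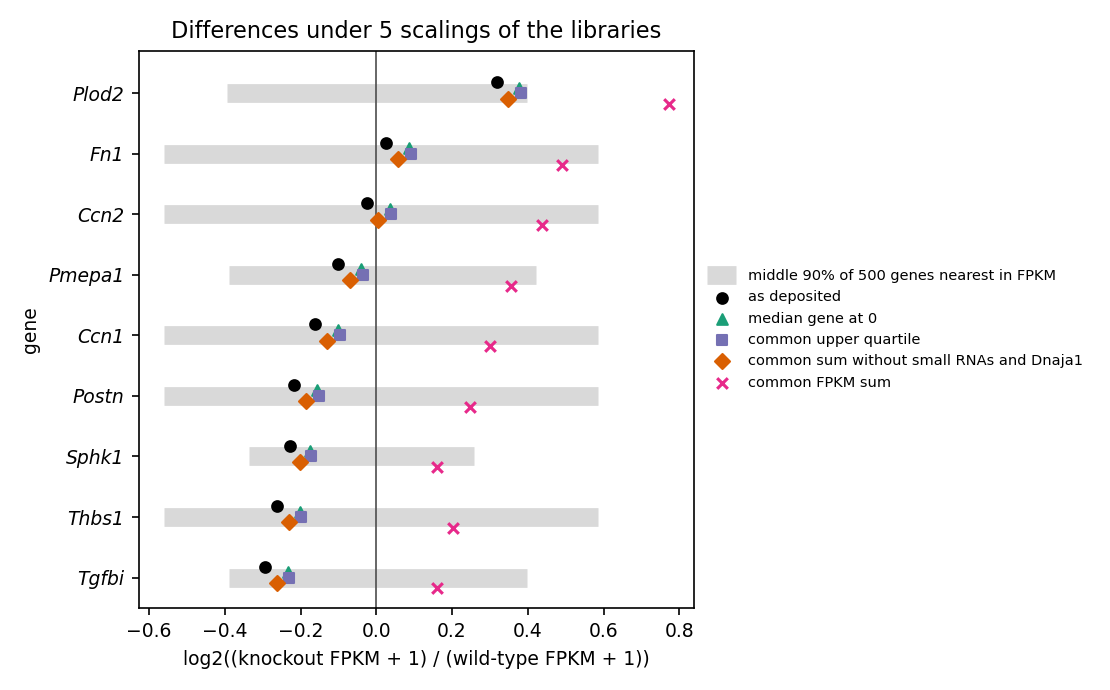
The log2 ratio of knockout over wild-type FPKM, with 1 added to each, for the 9 genes, ordered by the deposited ratio, under 5 scalings of the libraries (symbols). Grey bars span the middle 90% of the 500 genes nearest in mean FPKM as deposited. Black circles, as deposited, all lie within the bars. On a common FPKM sum (pink crosses) all 9 ratios are above 0, and Plod2, at 0.77, lies beyond its bar.

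The signs rested on the scaling, that of Plod2 and Fn1 excepted. On a common FPKM sum the median of all measured genes moved by 0.39 from the deposited scale, and all 9 genes stood above 0, with Tgfbi at 0.16 and Plod2 at 0.77. Relative to the median gene of that scale, 5 of the 9 were lower. Centred on the median gene, on a common upper quartile or on a common sum without small RNAs and Dnaja1, 6 of the 9 were below 0 and Ccn2 changed sign, to between 0.01 and 0.04. Plod2 was the highest of the 9 and Tgfbi the lowest under each of these 5 scalings.

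Relatives of the 9 genes were set beside them family by family. Each family list includes its members among the 9, and signs here and below are on the deposited scale. On a common FPKM sum the median of every list of relatives, targets and partners named here and below was above 0, while thrombospondin genes (0.17), fasciclin-domain genes (0.16) and other matricellular genes (0.22) stayed under the 0.33 of all measured genes there. Centred on the median gene these 3 medians were -0.19, -0.16 and -0.16. The median of 5 measured CCN genes was -0.03, with 3 below 0 and 2 above. Ccn3, a growth-restraining member, was at 47.5 FPKM in knockout MEFs and 40.0 FPKM in wild-type MEFs (0.24). Ccn5 was at 40.6 against 37.7 FPKM (0.10), Ccn4 at 56.3 against 57.5 FPKM (-0.03), and Ccn6 was below the measured limit. All 4 measured thrombospondin genes were below 0, with a median of -0.24. Thbs2 was the lowest, at 162 FPKM in knockout MEFs and 231 FPKM in wild-type MEFs (-0.51), lower than Thbs1 in ratio. Thbs4 was at 3.49 against 4.24 FPKM (-0.22) and Thbs3 at 11.4 against 12.2 FPKM (-0.09). Comp, the cartilage member, was below the measured limit.

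The lysyl hydroxylases did not share the ratio of Plod2. Plod1, which acts on the collagen helix, was at 19.9 FPKM in knockout MEFs and 22.3 FPKM in wild-type MEFs (-0.15), and Plod3 at 21.9 against 23.2 FPKM (-0.08). The other sphingosine kinase gene, Sphk2, was at 5.25 against 4.54 FPKM (0.18), opposite in sign to Sphk1. The median of 7 measured sphingosine-1-phosphate genes was -0.04, with 4 below 0 and 3 above. The receptor genes S1pr1 (-0.20), S1pr2 (0.24) and S1pr3 (0.00) were spread around it, as were the phosphatase gene Sgpp1 (-0.20) and the lyase gene Sgpl1 (-0.04). Ldlrad4, a relative of Pmepa1, was at 3.43 FPKM in knockout MEFs and 3.47 FPKM in wild-type MEFs (-0.02). Stab1, a distant fasciclin-domain relative of Tgfbi and Postn that serves as a scavenger receptor of macrophages and endothelium, was at 1.11 against 1.31 FPKM (-0.13).

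Among 10 other measured matricellular genes 9 were below 0, with a median of -0.22, and 5 were at least 1.2-fold lower, beside 10.6% of all measured genes. That count was 2 when centred on the median gene or on a common upper quartile, beside 799 and 777 of 11070 measured genes. It was 3 on the common sum without small RNAs and Dnaja1, beside 968 of all measured genes. On the full common sum 1 was lower and 4 were higher, beside 120 lower and 7353 higher of all measured genes. Spp1 (osteopontin), at 129 FPKM in knockout MEFs and 368 FPKM in wild-type MEFs (-1.51), was the 1 gene of this list past 2-fold. Sparcl1 (-0.55), Fbln5 (-0.32) and Fbln1 (-0.28) followed. Tenascin C (Tnc), a matricellular protein of healing tissue, was at 193 against 233 FPKM (-0.27). The part of macrophages, which also make osteopontin, in the value of Spp1 was not tested. Sparc, the most abundant of the list, was at 1706 against 1720 FPKM (-0.01).

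Other genes that TGF-β raises in fibroblasts were spread around 0. Their median over 28 measured genes was -0.02, with 16 below 0 and 12 above. At least 1.2-fold lower on the deposited scale was 1 of them, beside 10.6% of all measured genes. It was Lmcd1 (6.99 FPKM in knockout MEFs and 11.1 FPKM in wild-type MEFs, -0.60). At least 1.2-fold higher were 2 of them, the calponin gene Cnn1 (0.46) and Timp3 (0.37), an inhibitor of matrix proteases, beside 5.54% of all measured genes. The higher ones were 4 when centred on the median gene or on a common upper quartile, beside 858 and 870 of 11070 measured genes. On the full common sum 26 were higher and 0 lower, beside 7353 higher and 120 lower of all measured genes. The lower ones were 2 with 0.1 FPKM or none added, beside 1709 of 11070 and 1776 of 11046 measured genes. Tpm1, a tropomyosin gene, was at 0.24. Of 20 measured YAP and TEAD targets, Ccn1 and Ccn2 included, 15 were below 0, with a median of -0.05, the same as that of all measured genes to 2 decimals. Nt5e (1.67 against 6.39 FPKM, -1.47) was past 2-fold, while Ankrd1 was at 0.46, and Ajuba (-0.36) and Lats2 (-0.34) were lower.

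The genes through which TGF-β signals had small ratios. The 10 ligand, receptor and SMAD genes, all measured, had a median of -0.07, with 6 below 0 and 4 above. None reached 1.2-fold on the deposited scale with 1 FPKM added, a size that 16.2% of measured genes reached. With 0.1 FPKM or none added 1 (Tgfbr3) was lower by that much, beside 1709 of 11070 and 1776 of 11046 measured genes. On the full common sum 8 were higher, beside 7353 of 11070 measured genes. Tgfbr3, the co-receptor betaglycan, had the lowest ratio (-0.26), and Smad7, an inhibitory SMAD and itself a target of the pathway, had the highest (0.17). The kinase receptor genes Tgfbr1 and Tgfbr2 were at -0.17 and -0.15. Receptors of the secreted proteins, 14 of them measured, had a median of -0.09. Those with the largest ratios were Cd36, a thrombospondin receptor (-0.43), Itga6 (-0.34), Itgb3 (-0.23) and Sdc4 (0.21). Genes for partners of fibronectin in matrix assembly, 11 measured with Fn1 itself, had a median of -0.06. They included Tnc and the latent TGF-β binding protein gene Ltbp1 (-0.24) at the low end and the transglutaminase gene Tgm2 (0.11) at the high end, with Bmp1 at -0.13.

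**Figure D3:**
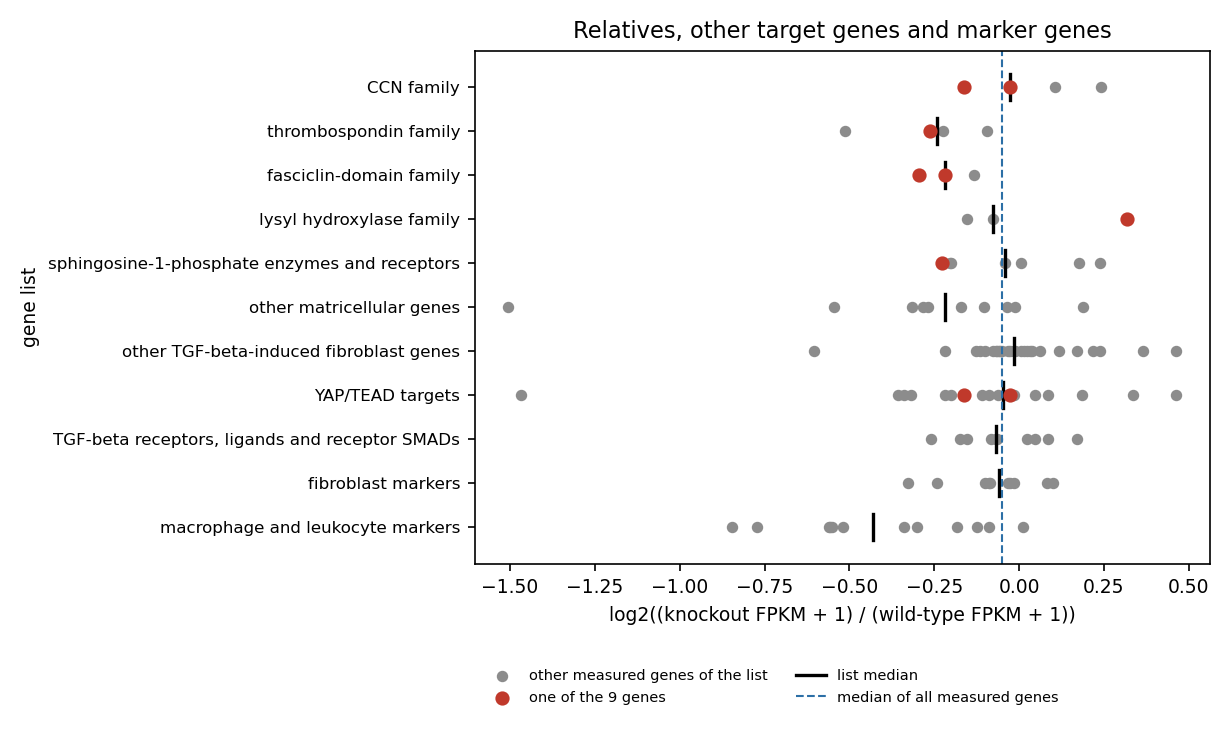
The log2 ratio of knockout over wild-type FPKM, with 1 added to each, for each measured gene (points) of 11 gene lists. Red points are the 9 genes where they belong to a list, black bars are list medians, and the dashed line is the median of all measured genes, -0.05. List medians lie between -0.43 for macrophage and leukocyte markers and -0.02 for other TGF-β-induced genes.

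Marker genes placed both libraries as fibroblasts. All 10 fibroblast markers were measured, with Col1a1, Col1a2 and Vim above 500 FPKM in both. Their median ratio was -0.06, with Dcn at -0.33, Pdgfra at -0.24, Lum at 0.10 and Col3a1 at -0.10. Of 5 skeletal muscle markers 1 was measured. It was Des, also on the smooth muscle list, at 9.80 FPKM in knockout MEFs and 12.7 FPKM in wild-type MEFs. Myod1 and Myog of that skeletal muscle list and the endothelial marker Tie1 were listed at 0 in both libraries. None of 5 endothelial markers and 1 of 5 epithelial markers (Krt18) was measured. Macrophage and leukocyte markers were present and differed: all 12 were measured, 11 were below 0, and their median was -0.43. Their summed level was 787 FPKM in knockout MEFs and 1267 FPKM in wild-type MEFs, most of it from lysozyme, whose entry joins Lyz1 and Lyz2 (572 against 979 FPKM, -0.77). C1qb was at -0.85, C1qc at -0.56 and Fcer1g at -0.56. None of the 12 was at 0. On a common FPKM sum their median was within 0.01 of 0, while that of all measured genes was 0.33. Smooth muscle markers went the other way, with 4 of 5 above 0 and a median of 0.15, led by Actg2 (0.60), with Des at -0.34.

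The authors' deposited table also holds a p-value for each gene, computed without replicate cultures. It was below 0.05 in the authors' deposited table for 6 of the 9 genes, beside 5.6% of measured genes. The 6 values printed in the authors' deposited table were 0.03535 for Pmepa1, 0.03575 for Ccn2, 0.03748 for Tgfbi, 0.04197 for Plod2, 0.04306 for Thbs1 and 0.04792 for Postn. All 6 lay between 0.03 and 0.05, a range that held 2.14% of measured genes in the authors' deposited table. The other 3 were 0.3041 for Ccn1, 0.4627 for Sphk1 and 0.9484 for Fn1 in the authors' deposited table.

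These p-values did not follow the size of the difference. Ccn2 and Fn1, at means of 127.7 and 407.5 FPKM, differed by almost the same amount, 0.03 on the log2 scale in opposite directions. Their p-values in the authors' deposited table were 0.03575 and 0.9484. Ccn1 differed more than Ccn2 and Pmepa1 but had the larger p-value. Under a normal approximation, the p-value of Ccn2 in the authors' deposited table implied a standard error of 0.0122 on the log2 scale. That is 0.0686 times the median of the 500 measured genes nearest in mean FPKM. For Ccn2, Ccn1, Thbs1, Postn and Fn1 these are the most abundant genes, a set not closely matched in level. For Pmepa1 the factor was 0.270, for Postn 0.617, for Thbs1 0.730 and for Tgfbi 0.801. It was 0.886 for Ccn1 and Plod2, 1.37 for Sphk1 and 2.25 for Fn1. Of 1644 other measured genes within 0.02 of the log2 size of Ccn2, the authors' deposited table listed 48 with p-values under 0.05 and 2 with p-values between 0.05 and 0.1, with a median of 0.924.

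The same break appeared across the table. Of 7123 measured genes with a log2 FPKM ratio within 0.2 of 0, the authors' deposited table listed 177 with p-values under 0.05, 3 with p-values from 0.05 to below 0.1 and 1 from 0.1 to below 0.2. For all 10 TGF-β ligand, receptor and SMAD genes the authors' deposited table gave p-values below 0.05, beside 5.6% of measured genes. Their p-values in the authors' deposited table lay between 0.010322 and 0.047317. For 9 of these 10 the implied standard error was under 0.5 times the median of the 500 genes nearest in mean FPKM. That held for 232 of 11033 genes with a value. Among the other TGF-β-induced genes the authors' deposited table put 13 of 28 below a p-value of 0.05, beside the same 5.6% of measured genes. None of the 7 sphingosine-1-phosphate genes was below it. How such p-values arose is not given in the sources used here. They are printed as deposited, and no statement above on the 9 genes rests on them.

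**Figure D4:**
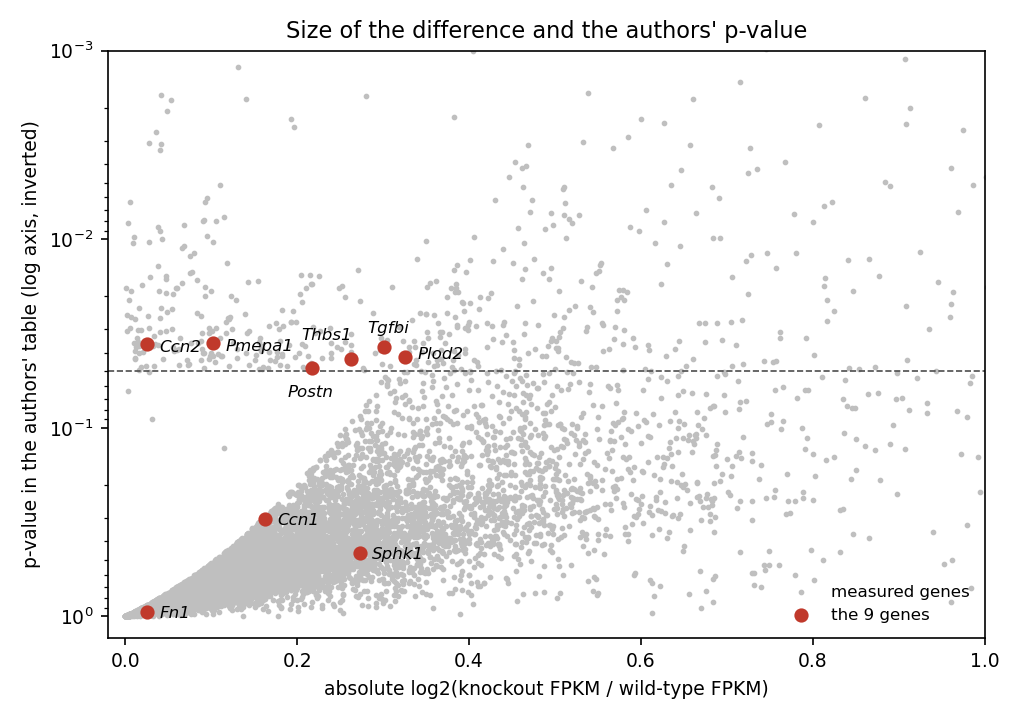
Absolute log2 ratio of knockout over wild-type FPKM, without a pseudocount (horizontal axis), and p-value in the authors' deposited table (vertical axis, log scale, smaller values at the top) for measured genes (grey) and the 9 genes (red). The axes show 10876 genes, 157 others lie beyond them, and the dashed line marks 0.05. Ccn1, Sphk1 and Fn1 lie within the dense band in which the p-value falls as the difference grows, whereas Ccn2 and Pmepa1 stand far above that band and the other 4 near its upper edge or above it.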

How the data were processed

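RNA sequencing was compared between 1 Sptbn1 knockout and 1 wild-type MEF library. TRIZOL extraction of total RNA preceded libraries made with the Illumina TruSeq RNA kit, per the labels' protocols. The series' design text and the submitters' processing notes name FastQC, Trimmomatic, TopHat2 (version 2.0.10), Cufflinks and Cuffdiff2, with reads aligned to NCBI mouse build 37.2. Per the file headers, the authors deposited FPKM per gene for each library and an unadjusted p-value, here called the authors' p-value. Fold changes were computed from the FPKM columns only. Total counts are not given, so the depth of each library in fragments and the counting error are unknown, and no interval was computed.

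Where a name was repeated, its row of highest mean FPKM was kept. No test was run, since each genotype had 1 library. Ratios were computed with a pseudocount of 1 FPKM in Python 3.11.15 (pandas 2.3.3, scipy 1.17.1) and tested on simulated data. The standard error implied by an authors' p-value is the absolute log2 FPKM ratio divided by the matching two-sided normal quantile. Names were matched through RefSeq's GRCm38.p6 gene table, and no gene coordinates are given because the reads were aligned to another build.

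The 9 genes and the 18 gene lists were chosen with earlier results of these data known. The genes named were the 9, Sptbn1, all measured relatives in the family lists, and up to 4 genes of each other list with the largest absolute ratios. Others (Tnc and Sparc, the most abundant fibroblast markers, and markers listed at 0) were named after their values were seen. Alternatives were 2 pseudocount settings, 4 scalings, 2 filters and summing of repeated rows.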

Additional observations from a re-analysis of the deposited data

How the results depend on the processing

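None of the 9 genes reached 2-fold under any of the 9 alternatives, whereas the count past 1.2-fold moved with the settings. It was 3 lower with a pseudocount of 0.1 FPKM and with none, because Thbs1 and Sphk1 then passed the limit, and 0 lower when centred on the median gene, on a common upper quartile and on either common sum. With the full sum 5 were higher, the median of the 9 was 0.30, and Tgfbi turned to 0.16. That sum holds Dnaja1 and abundant small RNA rows, and without them the median of the 9 was -0.13. Every member ratio moved by less than 0.1 under the other 8 alternatives. For all measured genes the full sum gave a median of 0.33, with 120 lower and 7353 higher past 1.2-fold, and 26 lower and 100 higher past 2-fold. Past 1.2-fold lower were 1709 genes with a pseudocount of 0.1 FPKM, 1776 without one and 777 on a common upper quartile (870 higher). Past 2-fold lower were 72 with a pseudocount of 0.1 FPKM and 68 with none. With a mean of 5 FPKM or more, which tests fewer genes, 560 were lower and 306 higher past 1.2-fold, and 25 higher past 2-fold. No paired analysis was possible because each genotype had 1 library, and for the same reason no library could be left out. Total fragments are unknown, which limits what can be said of Sphk1 in particular.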
